A study of Mus musculus with 12 samples.

Results

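A set of 42 constructs of a pooled CRISPR library carried sgRNAs against both Pdcd1 and Ctla4 and none against Adora2a. They were 42 of the 689 constructs analysed, or 6.10%, and were chosen by the targets in the construct names and not by measured values. The targets had to include Pdcd1 and Ctla4, could include up to 2 of Tigit, Btla and Havcr2, and could not include Adora2a. This gave 7 of the 101 target combinations of the library, with 6 constructs each: Ctla4+Pdcd1, Ctla4+Pdcd1+Tigit, Btla+Ctla4+Pdcd1, Ctla4+Havcr2+Pdcd1, Btla+Ctla4+Pdcd1+Tigit, Ctla4+Havcr2+Pdcd1+Tigit and Btla+Ctla4+Havcr2+Pdcd1. Every construct had 4 sgRNA slots, and slots without a target held non-targeting sgRNAs.

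Pdcd1 encodes PD-1, an inhibitory receptor of activated T cells that binds PD-L1 and PD-L2 and dampens signalling from the T cell receptor and CD28. Ctla4 encodes CTLA-4, which competes with CD28 for its ligands CD80 and CD86 and so limits co-stimulation. Antibodies that block both receptors together are used in cancer therapy. The further targets also encode inhibitory receptors: TIGIT binds CD155, BTLA binds HVEM, TIM-3 is the product of Havcr2, and Adora2a encodes a receptor for adenosine. A pooled screen of this kind reads how abundant the DNA of each construct is before and after T cells have met a tumour, and it measures no protein and no editing.

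All samples came from CD8+ T cells of C57BL/6 mice that had been activated in culture for 24 h and transduced with the lentiviral library, in which mKate2 fluorescence marks transduced cells. Part of the transduced population was frozen as the starting reference (SR), and the rest, with 5 to 10% of cells positive for mKate2, was given to mice on day 12 of tumour growth. Tumour-infiltrating lymphocytes (TIL) positive for CD8 and mKate2 were collected by sorting 7 days later, at 20000 to 40000 cells per tumour, pooled over 3 to 4 mice per replicate and mixed with 50 Raji cells, a human B cell line that serves as carrier, per T cell. SR and TIL had 3 replicates each, and each replicate was read over 2 regions of the construct, slots 1 and 2 (region 1) and slots 2 and 3 (region 2). The nuclease is not named in the sources used here. Slot 4 was not read; in 18 of the 42 constructs it held a target, which was therefore taken from the construct name. The SR read-out was amplified by direct PCR and the TIL read-out by a PCR in 2 steps, so amplification and condition cannot be told apart in any comparison of TIL with SR.

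The 42 constructs used 47 spacers, 9 each for Pdcd1, Ctla4 and Tigit and 10 each for Btla and Havcr2. Spacers are named here by their gene and a letter, in alphabetical order of the sequence, and constructs by their targeting spacers in slot order. The 9 Pdcd1 and 9 Ctla4 spacers are shown because every construct carried one of each, 5′ to 3′ in the sense of the guide, with the last 10 bases, which in SpCas9 guides lie next to the PAM and pair first with the target, in capitals.
Pdcd1-a: agatcatacaGCTGCCCAAC
Pdcd1-b: caatacagggATACCCACTA
Pdcd1-c: cagcttgtccAACTGGTCGG
Pdcd1-d: ccctcaccttCTACCCAGCC
Pdcd1-e: ctgcagttgaGCTGGCAATC
Pdcd1-f: gctcaaaccaTTACAGAAGG
Pdcd1-g: tctgggcatgTGGGTCCGGC
Pdcd1-h: tgaatgaccaGGGTACCTGC
Pdcd1-i: tgttgggcagCTGTATGATC
Ctla4-a: acacaacactGATGAGGTCC
Ctla4-b: acaggtgaccCAACCTTCAG
Ctla4-c: acatagacccCTGTTGTAAG
Ctla4-d: actttccatgTCAGCCATAC
Ctla4-e: attcttctctGTGAATGTCG
Ctla4-f: ctgctagccaACACCACTGA
Ctla4-g: ggactgagagCTGTTGACAC
Ctla4-h: tgcccacaaaGTATGGCGGT
Ctla4-i: tgtgatggtgAATATTCACA

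The partner spacers of the constructs named below are shown in the same way, together with partner spacers that overlap one of them.
Tigit-a: acctatcataCGTATCCTGG
Tigit-b: caggcacgatAGATACAAAG
Tigit-c: cccaccaggaTACGTATGAT
Tigit-d: cctatcatacGTATCCTGGT
Tigit-f: ggccatttatAGTGTTGACC
Tigit-g: gtatcctggtGGGATTTACA
Tigit-h: tcacccatagGAGCCACAGC
Tigit-i: tgcaagccttACCTGTAGCG
Btla-a: cagtgcaactTACTATTACG
Btla-b: gattccttccAATAACACAA
Btla-c: ggaagggacaCTAACCTGGT
Btla-e: tcacatggatGGTTACTGAA
Btla-f: tcatcctgcaTGCTAGACCA
Btla-g: tctttgaaccATTGTGTTAT
Btla-h: tgggactcctCGGTTATTTA
Btla-j: ttgggactccTCGGTTATTT
Havcr2-a: aatcccttgcCCCAGCACAT
Havcr2-b: agctgtagtaGAGTCCCCAT
Havcr2-c: atcagttctgAGCAACTCGT
Havcr2-f: gaggcggtcaGGATGGCTGC
Havcr2-g: gccctttagcTGGTATCTGC
Havcr2-h: gttacactctATCTACACCT

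Each of the 42 constructs had its own pairing of a Pdcd1 with a Ctla4 spacer, which used 42 of the 81 possible pairs, so no pair was tested in more than 1 construct. A Pdcd1 spacer occurred in 3 to 6 of the 42 constructs and a Ctla4 spacer in 3 to 7, so constructs that share a spacer share a target site. Some spacers also share bases with each other. Pdcd1-a and Pdcd1-i cover the same 19 bases on opposite strands. Tigit-a and Tigit-d are shifted by a single base on the same strand, with 19 bases in common, and Tigit-c overlaps Tigit-a by 16, Tigit-d by 17 and Tigit-g by 13 bases on the opposite strand. Btla-h and Btla-j share 19 bases on the same strand. GC content ran from 30.0% (Btla-g) to 70.0% (Pdcd1-g and Havcr2-f), with medians of 55.0% for Pdcd1 and 50.0% for Ctla4 spacers.

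The deposited values are reads per construct that the authors scaled by a factor of the library, called scaled reads here. Library totals ran from 8288404 to 25646820 scaled reads. Levels are given as scaled reads per 1000000 of the library (CPM), averaged over the regions. In SR the 42 constructs had a median level of 1134 CPM, against 1136 CPM over the library, and ran from 107.3 to 4933 CPM. Non-targeting constructs had a lower median of 805.7 CPM in SR and ran from 25.22 to 23630 CPM. Values relative to them were not adjusted for starting level. The 84 non-targeting constructs are the negative control, and their mean log2 change from SR to TIL was -8.65, -8.86 and -7.69 in replicates 1, 2 and 3. Nothing in the labels says that replicates came from separate cultures, and the columns of the SR libraries carry no replicate number, so p-values measure only the spread between these samples.

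The first comparison asked which constructs against Pdcd1 and Ctla4 changed in abundance between the transferred cells and the tumours. Of the 42 constructs 25 fell and none rose, on the log2(CPM + 1) scale (limma, adjusted p under 0.05 over 689 constructs). Over the library 67.8% of constructs fell and 0.435% rose, so the share that fell among the 42 was near that of all constructs. These calls rest on scaling to the library total: scaled on the median of ratios, 0 of the 42 and 3 constructs of the library were called lower. That scaling takes out a change shared by most constructs, so it cannot show whether the 42 fell together with the library. The median log2 change was -8.41 for the 42 and -8.50 for all 689. The 25 that fell had log2 changes between -11.39 and -6.65 (limma adjusted p between 1.29e-07 and 4.58e-05), and none of them exceeded 2.854 CPM in any TIL replicate. In 26 of the 42, every TIL level lay below every SR level, against 69.8% of the library. Every one of the 17 that did not pass exceeded 1000 scaled reads in at least 1 region of 1 TIL replicate, and their log2 changes lay between -6.92 and -1.45 (limma adjusted p between 0.104 and 0.743). The scale understates the loss of a construct with few or no reads.

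The lowest changes were in constructs that started high. Ctla4-d/Btla-b/Pdcd1-g/Havcr2-b had 3174, 3943 and 3821 CPM in SR 1, 2 and 3 and 0.650, 0.0869 and 0.368 CPM in TIL 1, 2 and 3, a log2 change of -11.39 ± 0.20 (SE, n = 3 per group; limma adjusted p = 2.39e-07). Ctla4-f/Pdcd1-d had 3217, 2531 and 3109 CPM in SR and 0.464, 0.0869 and 0.0440 CPM in TIL, a change of -11.28 ± 0.19 (limma adjusted p = 2.15e-07). Btla-h/Pdcd1-b/Tigit-a/Ctla4-a had 2080, 2980 and 2472 CPM in SR and 0.348, 0.161 and 0.110 CPM in TIL, a change of -11.01 ± 0.18 (limma adjusted p = 1.89e-07). In each of these 3 all TIL samples lay below 1 CPM and all SR samples at or above 2080 CPM.

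Set against the non-targeting mean within each sample, 7 of the 42 were lower and 1 was higher (limma adjusted p under 0.05), where the library had 21.0% lower and 4.64% higher. The median relative change was -0.01 for the 42 and -0.10 for all 689 constructs. The 7 lower constructs, the 3 above among them, started at mean SR levels of 1637 to 3646 CPM, did not exceed 0.662 CPM in TIL, and differed from the non-targeting mean by -3.00 to -1.92. With TIL levels this near 0, the size of a fall on this scale is mostly the log2 SR level. The 7 lower calls thus cannot be told apart from a high start. The 1 higher construct, Havcr2-g/Pdcd1-f/Ctla4-i, had 153.2, 87.14 and 81.65 CPM in SR and 0.0696, 0 and 0.0440 CPM in TIL. It was the lowest of the 42 in SR and practically without reads in TIL. Its own log2 change was -6.65, and its value of 1.75 ± 0.43 relative to non-targeting constructs (SE, n = 3 per group; limma adjusted p = 0.0455) is a smaller fall from a lower start and not a rise. The calls of this test moved with its settings: leaving out constructs under 200 CPM in SR left 1 lower and 0 higher, and leaving out replicate 1 or replicate 2 left none. Without replicate 3 it called 11 lower and 3 higher. The shares of the library in these settings are not given here, so these counts cannot be set against them.

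Abundant constructs in the tumours were few, and which ones they were differed between replicates. Detection in a TIL replicate required more than 1000 scaled reads in each region, a threshold taken from an earlier analysis of these data. The 42 constructs were detected in 4, 4 and 10 cases in TIL 1, 2 and 3. That is 9.52% (Wilson 95% interval 3.77 to 22.1%), 9.52% (3.77 to 22.1%) and 23.8% (13.5 to 38.5%), against 11.3, 8.85 and 14.1% of all 689 constructs. The intervals cover counting error only. Over the replicates this made 18 of 126 cases, 14.3 ± 8.25% (SD, n = 3), where all constructs had 11.4%, all checkpoint constructs 14.3% and non-targeting constructs 6.35%. TIL 3 gave 10 of the 18 cases, and without it 8 remain.

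Detection was close to all or nothing. The 18 detected cases had at least 21149 scaled reads in each region, and in 103 other cases no region exceeded 267. The remaining 5 cases passed the threshold in 1 region only, against 3.19% of all cases of the library. In TIL 1, Ctla4-g/Tigit-f/Pdcd1-b had 15 scaled reads in region 1 and 109981 in region 2, and Ctla4-g/Tigit-g/Pdcd1-f/Havcr2-a had 51 and 62662. In TIL 3, Havcr2-b/Ctla4-i/Pdcd1-d/Tigit-i had 2 and 21509, Tigit-h/Pdcd1-i/Ctla4-h had 5 and 17962, and Havcr2-c/Pdcd1-i/Btla-g/Ctla4-e had 1147 and 191. The first 4 were seen through slots 2 and 3 alone, although slot 2 is also part of region 1. The source of the reads of a single region was not tested.

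Of the 42 constructs 14 were detected at least once, against 26.3% of the library, and 28 never were. None was detected in all 3 replicates. A single replicate detected 10 of the 14, which was TIL 1 for 1 construct, TIL 2 for 2 and TIL 3 for 7. Of the other 4, TIL 1 and TIL 2 shared 1, TIL 1 and TIL 3 shared 2, and TIL 2 and TIL 3 shared 1. The constructs are described below by their targets.

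The pair without further targets, Ctla4+Pdcd1, held the highest level of the 42 constructs, in TIL 3. Pdcd1-h/Ctla4-a had 1109, 1394 and 1168 CPM in SR 1, 2 and 3 and 0.325, 0.0435 and 35650 CPM in TIL 1, 2 and 3. Pdcd1-c/Ctla4-h had 879.6, 784.4 and 769.2 CPM in SR and 0.151, 0.0435 and 13710 CPM in TIL. TIL 3 thus stood 30.5-fold and 17.8-fold above its SR level for these constructs, while TIL 1 and TIL 2 lay under 1 CPM. The other 4 constructs of the pair were detected in no replicate.

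Among the triple combinations, Btla+Ctla4+Pdcd1 had 5 detected cases in 3 constructs. Ctla4-a/Btla-c/Pdcd1-i had 3688, 2265 and 2363 CPM in SR and 12830, 0.966 and 3484 CPM in TIL. Ctla4-e/Pdcd1-g/Btla-f had 4736, 4988 and 5075 CPM in SR, the highest start of the 42, and 7520, 7.68 and 4854 CPM in TIL. Both were abundant in TIL 1 and TIL 3 and low in TIL 2, and their groups overlapped. Btla-a/Pdcd1-b/Ctla4-c had 691.8, 591.3 and 720.0 CPM in SR and 0.151, 0.0311 and 11630 CPM in TIL, so that TIL 3 alone was high, 16.2-fold above SR 3.

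Ctla4+Havcr2+Pdcd1 had 3 detected cases in 2 constructs. Ctla4-d/Havcr2-h/Pdcd1-h had 1069, 835.0 and 1155 CPM in SR and 0.116, 18420 and 2472 CPM in TIL, which is 22.1-fold above SR in replicate 2 and 2.14-fold in replicate 3. Its mean change, -1.45 ± 3.93 (SE, n = 3 per group; limma adjusted p = 0.743), was the highest of the 42. Havcr2-c/Pdcd1-f/Ctla4-h had 1909, 2139 and 2236 CPM in SR and 0.337, 0.130 and 7042 CPM in TIL. The third triple, Ctla4+Pdcd1+Tigit, had no detected case among 18, but 2 of the 18 exceeded the threshold in region 2 alone.

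Each quadruple combination had 2 or 3 detected cases. In Btla+Ctla4+Pdcd1+Tigit a different construct was high in each replicate. Tigit-b/Pdcd1-a/Ctla4-c/Btla-e had 1371, 1627 and 1560 CPM in SR and 8808, 5.83 and 0.0440 CPM in TIL. Tigit-g/Btla-e/Pdcd1-d/Ctla4-h had 999.1, 1456 and 1176 CPM in SR and 0.139, 16940 and 0.0660 CPM in TIL. Ctla4-f/Tigit-h/Btla-a/Pdcd1-g had 1025, 978.9 and 1036 CPM in SR and 0.151, 0.0745 and 21870 CPM in TIL. The high replicate exceeded its SR level 6.42-fold, 11.6-fold and 21.1-fold in these 3 constructs.

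In Ctla4+Havcr2+Pdcd1+Tigit, Ctla4-g/Tigit-g/Pdcd1-f/Havcr2-a had 1263, 1160 and 1254 CPM in SR and 2182, 10440 and 0 CPM in TIL, the first of these from region 2 alone. Tigit-b/Ctla4-b/Havcr2-f/Pdcd1-g had 4601, 4726 and 4688 CPM in SR and 0.929, 5.40 and 22110 CPM in TIL. The first was high in TIL 2 and listed at 0 in TIL 3, and the second was high in TIL 3 alone.

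In Btla+Ctla4+Havcr2+Pdcd1, Havcr2-c/Pdcd1-i/Btla-g/Ctla4-e had 4384, 4274 and 4426 CPM in SR and 7947, 9916 and 36.8 CPM in TIL. It was the one construct of the 42 detected in both TIL 1 and TIL 2, at 1.81-fold and 2.32-fold of its SR level. Without replicate 3 its log2 change was 1.04 ± 0.19 (SE, n = 2 per group; limma adjusted p = 0.0151), the only rise called among the 42 in that setting, in which 28 constructs of the library were called higher. With all 3 replicates it was -1.60 ± 2.42 (SE, n = 3 per group; limma adjusted p = 0.569). Pdcd1-g/Btla-j/Havcr2-h/Ctla4-h had 1321, 1813 and 1691 CPM in SR and 0.139, 0.658 and 2927 CPM in TIL.

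The authors' deposited tables call a construct up when its log2 ratio of TIL over SR is at least 1 in both regions. Of the 42 constructs 1, 3 and 5 were up in replicates 1, 2 and 3 (2.38, 7.14 and 11.9%), against 8.71, 7.55 and 6.10% of the library. These 9 cases, against 7.45% of all cases of the library, were 9 different constructs, each up in 1 replicate, against 18.3% of the library up at least once. In the authors' deposited tables the log2 enrichment of such constructs was highest for Ctla4+Pdcd1 in replicate 3, at 2.78 from 2 of its 6 constructs, and 0 in replicates 1 and 2, where none of its constructs was up. For the other members with a construct up, the authors' deposited value ran from 1.69 to 2.20, each from 1 construct of 6.

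Starting abundance moved with detection. Constructs of the 42 at or above the library's median SR level were detected in 13 of 63 cases (20.6%), and those below it in 5 of 63 (7.94%). The whole library had 18.5 and 4.36% in the same classes. The 14 constructs ever detected had a median SR level of 1372 CPM (667.7 to 4933 CPM) and the 28 never detected 1037 CPM (107.3 to 3646 CPM). The part of starting abundance in the values of single constructs and spacers was not tested.

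Detection by spacer is given as counts, because each spacer sits with different partners in every construct. Among the Pdcd1 spacers, Pdcd1-g accounted for 5 of the 18 detected cases with 15 of the 126 cases tested, and 4 of its 5 constructs were detected at least once. The same spacer was detected in 16 of 39 cases (41.0%) of the checkpoint constructs outside the 42, against 45 of 303 cases (14.9%) for the other 8 Pdcd1 spacers there. Its constructs also started higher, with median SR levels of 3646 CPM among the 42 and 2282 CPM outside them, where the other Pdcd1 spacers had 1074 and 1182 CPM. Pdcd1-d stood at the other end, with 1 of 18 cases among the 42 and 1 of 51 (1.96%) over all checkpoint constructs. Not counted there is Havcr2-b/Ctla4-i/Pdcd1-d/Tigit-i, with 21509 scaled reads in TIL 3 in region 2 alone. Pdcd1-e was detected in 0 of 9 cases among the 42 but in 9 of 57 (15.8%) over all checkpoint constructs. The overlapping spacers Pdcd1-a and Pdcd1-i, which target the same bases from opposite strands, were detected in 9 of 48 (18.8%) and 14 of 54 (25.9%) checkpoint cases.

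Among the Ctla4 spacers, Ctla4-e and Ctla4-h had 4 detected cases each among the 42, of 12 and 18, and Ctla4-a had 3 of 9. Ctla4-h reached them through 4 different constructs and Ctla4-e through 2. Ctla4-i was detected in 0 of 15 cases among the 42 and in 2 of 51 (3.92%) over all checkpoint constructs. Its construct with Pdcd1-d, Havcr2-b and Tigit-i had 21509 scaled reads in TIL 3 in region 2 alone and is not counted as detected. Ctla4-i has the lowest GC content of the Ctla4 spacers, 35.0%. Its 5 constructs among the 42 had mean SR levels of 107.3 to 960.3 CPM, below the library median of 1136 CPM. The part of either in its detection was not tested. Ctla4-d, the most used with 7 constructs, was detected in 2 of 21 cases, both from the construct with Havcr2-h and Pdcd1-h. Over all checkpoint constructs the share ran from 3.92% (Ctla4-i) to 24.1% (Ctla4-a) for Ctla4 and from 1.96% (Pdcd1-d) to 38.9% (Pdcd1-g) for Pdcd1. Overlapping Tigit spacers differed as well, with 1 of 48 checkpoint cases for Tigit-a, 6 of 51 for Tigit-d, 10 of 48 for Tigit-c and 7 of 51 for Tigit-g. These spacers were singled out after their values had been seen, and no test was made.

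Detection was also counted by position in the construct. Constructs with Pdcd1 in slot 1, 2, 3 and 4 were detected in 3 of 33, 7 of 45, 6 of 42 and 2 of 6 cases, and those with Ctla4 in the same slots in 8 of 42, 3 of 42, 3 of 27 and 4 of 15. In the 7 constructs in which Pdcd1 or Ctla4 sat in slot 4, which was not read, 6 of 21 cases were detected. The share was thus highest in slot 4 for both genes, from few cases and without a test.

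The next comparison asked how each combination stood against non-targeting constructs. The value of a combination is the mean log2 change of its 6 constructs minus that of the non-targeting constructs in the same replicate. None of the 7 combinations passed (limma, adjusted p between 0.153 and 0.953 over 101 combinations), while 0.990% of all combinations were higher and 0% lower. At an unadjusted p under 0.05 there were 19 of 101, of which 1 was among the 7. Of the 7 combinations 6 had a mean above the non-targeting mean, as did 72 of all 101, and their median value was 0.95 against 0.52. Values above 0 in 3 of 3 replicates occurred in 2 of the 7 and in 22.8% of all combinations.

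Ctla4+Havcr2+Pdcd1+Tigit had the highest value, with 0.68, 1.84 and 2.07 in replicates 1, 2 and 3, a mean of 1.53 ± 0.52 (SE, n = 3; limma adjusted p = 0.153, unadjusted p = 0.0191). Btla+Ctla4+Pdcd1 had 2.45, -1.01 and 3.02, a mean of 1.49 ± 1.01 (limma adjusted p = 0.504). Ctla4+Havcr2+Pdcd1 had -0.66, 2.16 and 2.31, a mean of 1.27 ± 0.85 (limma adjusted p = 0.504). With region 1 alone the first was 0.53 (limma adjusted p = 0.756), under the 1.64 and 1.29 of the next 2, and it includes cases that passed the detection threshold in region 2 only. The first was above 0 in every replicate, whereas the others were below it in replicate 2 and replicate 1 respectively.

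Btla+Ctla4+Pdcd1+Tigit had 0.95, 1.74 and 0.15, a mean of 0.95 ± 0.56 (SE, n = 3; limma adjusted p = 0.463). Ctla4+Pdcd1 had -0.99, -0.77 and 2.77, a mean of 0.34 ± 1.00 (limma adjusted p = 0.871, 95% interval -1.99 to 2.67). The mean of the pair was set by TIL 3, and without replicate 3 it was -0.88. Btla+Ctla4+Havcr2+Pdcd1 had 0.35, 0.52 and -0.11, a mean of 0.25 ± 0.48 (limma adjusted p = 0.806), and Ctla4+Pdcd1+Tigit had 0.89, -0.42 and -0.57, a mean of -0.03 ± 0.55 (limma adjusted p = 0.953). Neighbouring values in this order differed by less than the larger of their standard errors. With the median in place of the mean over the 6 constructs, all 7 values were negative and 3 were called lower. The share of all combinations called lower in that setting is not given here. A median gives little weight to the few detected constructs, while the non-targeting mean keeps those of the control. The median relative change of the non-targeting constructs was -0.60, and the part of this in the values was not tested.

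Detection was also counted by the number and kind of further targets beside the pair. The pair alone was detected in 2 of 18 cases (11.1%), the constructs with 1 further gene in 8 of 54 (14.8%) and those with 2 further genes in 8 of 54 (14.8%). Their mean values were 0.34 ± 2.11, 0.91 ± 0.67 and 0.91 ± 0.40 (SD, n = 3). With Btla 11 of 54 cases were detected and without it 7 of 72, with Tigit 5 of 54 and without it 13 of 72, and with Havcr2 8 of 54 and without it 10 of 72. The mean values with and without Btla were 0.90 ± 0.43 and 0.78 ± 0.83, with and without Tigit 0.82 ± 0.25 and 0.84 ± 1.01, and with and without Havcr2 1.02 ± 0.77 and 0.68 ± 0.74 (SD, n = 3). These counts need both regions, and cases over the threshold in 1 region only fell unevenly. Ctla4-g/Tigit-f/Pdcd1-b, Ctla4-g/Tigit-g/Pdcd1-f/Havcr2-a, Havcr2-b/Ctla4-i/Pdcd1-d/Tigit-i and Tigit-h/Pdcd1-i/Ctla4-h, all with Tigit and without Btla, each had 1 such case. Without Tigit only Havcr2-c/Pdcd1-i/Btla-g/Ctla4-e had 1. The counts with and without Tigit or Btla thus depend on this rule. Each difference in mean value was smaller than the larger SD between replicates, and the differences in detection were not tested.

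The effect of adding 1 gene was tested as the difference between 2 combinations that differ by that gene. There were 27 such steps into, within and out of the 7 combinations, and none passed (limma over 248 steps, adjusted p between 0.144 and 0.898). Over the library 0.806% of steps were lower and 0% higher. Of the 27 steps 16 were above 0, with a median of 0.52, and 3 had an unadjusted p under 0.05. Of all 248 steps 122 were above 0, with a median of -0.02, and 43 had an unadjusted p under 0.05. The direction was the same in 3 of 3 replicates for 5 of the 27, 4 upward and 1 downward, where 18.1 and 16.9% of all steps were.

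Neither single gene gave a step to the pair that passed. Adding Pdcd1 to Ctla4 gave -0.28, -0.78 and 0.06 in replicates 1, 2 and 3, a mean of -0.33 ± 0.47 (SE, n = 3; limma adjusted p = 0.755, 95% interval -1.49 to 0.82). Adding Ctla4 to Pdcd1 gave -4.09, -6.11 and 3.35, a mean of -2.28 ± 2.41 (limma adjusted p = 0.671, 95% interval -8.24 to 3.67). Leaving out 1 replicate moved the latter from -0.37 (without replicate 2) to -5.10 (without replicate 3, limma adjusted p = 0.0610), with -1.38 without replicate 1. Adding Pdcd1 gave values within 1 log2 unit of 0 in every replicate, and adding Ctla4 changed sign in TIL 3. The combination values behind these steps were 0.67 for Ctla4, 2.62 for Pdcd1 and 0.34 for the pair.

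The pair was also set against the sum of its single genes. The pair minus the sum was -3.38, -6.12 and 0.64 in replicates 1, 2 and 3, below the sum in the first 2 and above it in the last. The mean difference was -2.95 ± 1.62 (SE, n = 3; limma adjusted p = 0.415 over 31 pairs, 95% interval -6.72 to 0.81). This was the 2nd lowest of 31 pairs, of which 19 lay below 0 with a median of -0.56. None of the 31 pairs was called (0%), and 4 had an unadjusted p under 0.05. Without replicate 3 the difference was -4.75 and was called (limma adjusted p = 0.00377). Without replicate 1 it was -2.74 and without replicate 2 it was -1.37 (limma adjusted p = 0.839 and 0.806). With medians over constructs it was -1.07 (limma adjusted p = 0.689). The share of the 31 pairs called in these settings is not given here.

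Of the steps that added 1 gene to the pair, Btla gave 3.44, -0.24 and 0.25 in replicates 1, 2 and 3, a mean of 1.15 ± 0.99 (SE, n = 3; limma adjusted p = 0.622). Havcr2 gave 0.33, 2.92 and -0.46, a mean of 0.93 ± 0.94 (limma adjusted p = 0.671). Tigit gave 1.88, 0.35 and -3.34, a mean of -0.37 ± 1.34 (limma adjusted p = 0.898). All 3 genes gave values on both sides of 0, so no direction can be read from them, and each moved with a single replicate: Btla gave 0.01 without replicate 1, Havcr2 -0.07 without replicate 2 and Tigit 1.12 without replicate 3.

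Adora2a gave the largest of the 27 steps. Adding it to the pair gave 8.21, 8.59 and 0.94, a mean of 5.91 ± 2.09 (SE, n = 3; limma adjusted p = 0.235, unadjusted p = 0.0313), from 0.34 for Ctla4+Pdcd1 to 6.25 for Adora2a+Ctla4+Pdcd1. It was large in replicates 1 and 2 and small in replicate 3. Without replicate 3 it was 8.40 and passed (limma adjusted p = 0.0158), and with medians over constructs it was 9.84 (limma adjusted p = 0.0165). Of the 27 steps 2 passed in the first of these settings and 7 in the second. The shares of all steps of the library called in them are not given here. Adding Adora2a to the triples gave 2.82 ± 1.61 with Havcr2 (limma adjusted p = 0.434), 1.29 ± 0.96 with Tigit (limma adjusted p = 0.548) and -1.28 ± 1.45 with Btla (limma adjusted p = 0.687; SE, n = 3). With Havcr2 the replicates had 5.58, 3.59 and -0.72, with Tigit 1.17, 3.09 and -0.38, and with Btla -2.08, 1.95 and -3.70. Replicate 3 was the lowest of the 3 in each of the 4 steps.

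The steps at the lower end led to Ctla4+Pdcd1+Tigit. Adding Pdcd1 to Ctla4+Tigit gave -5.30, -4.97 and 0.21, a mean of -3.35 ± 1.61 (SE, n = 3; limma adjusted p = 0.320). Without replicate 3 it was -5.13 and passed (limma adjusted p = 0.0160), in a setting whose share of called steps over the library is not given here. Adding Ctla4 to Pdcd1+Tigit gave -2.24, -2.13 and -4.03, a mean of -2.80 ± 0.63 (limma adjusted p = 0.144, unadjusted p = 0.00466), with -4.36 in region 1 alone and -0.92 in region 2 alone (limma adjusted p = 0.0716 and 0.710). The latter was the one step of the 27 that was negative in 3 of 3 replicates. At the upper end, adding Ctla4 to Btla+Pdcd1 gave 3.01, -0.77 and 4.72, a mean of 2.32 ± 1.40 (SE, n = 3; limma adjusted p = 0.457).

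The 24 constructs against Pdcd1, Ctla4 and Adora2a were the most alike in targets, and the replicates ordered them differently from the 42. They were detected in 8, 8 and 4 cases in TIL 1, 2 and 3 (33.3, 33.3 and 16.7%), against 4, 4 and 10 of the 42. The mean value of their 4 combinations exceeded that of the 7 without Adora2a by 3.12 and 3.71 in replicates 1 and 2 and differed from it by -0.46 in replicate 3. Their mean over replicates was 2.95 ± 1.79, against 0.83 ± 0.48 for the 7 (SD, n = 3). The difference changed sign between replicates and was not tested as such. The 42 constructs took 4.31, 5.57 and 12.8% of the TIL reads and 6.56, 6.36 and 6.33% of the SR reads, so their share was 0.658, 0.876 and 2.02 times that in SR. The share of the 24 with Adora2a was 3.87, 4.45 and 1.45 times that in SR. In TIL 3 the 42 included Ctla4+Pdcd1 at 4.94% of the reads, of which Pdcd1-h/Ctla4-a alone took 3.57%, and no construct of the 42 took more than 1.28% in TIL 1 or 1.84% in TIL 2.

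Constructs with 1 of the 2 genes showed detection of the same order. The 48 constructs with Pdcd1 but neither Ctla4 nor Adora2a were detected in 7, 5 and 7 cases, and the 48 with Ctla4 but neither Pdcd1 nor Adora2a in 5, 3 and 9. Over the replicates this was 13.2 ± 2.41% and 11.8 ± 6.36% of cases, against 14.3 ± 8.25% for the 42 (SD, n = 3). The differences from the 42 were smaller than the SD of the 42 between replicates. Median log2 changes were -8.89, -8.16 and -8.41 for the 3 groups.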

How the data were processed

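The screen was read as construct DNA in 12 libraries, 3 SR and 3 TIL replicates over 2 regions each, grouped by the sample titles. The deposited scores are whole numbers that the authors scaled per library, per the values: low TIL values lay on steps of 1.356 to 2.731 scaled reads per read (97.6 to 100% of those examined), so 1000 scaled reads stand for 366 to 737 reads. No source used here states the scaling factor or a genome build, and Bowtie2 is named in the submitters' processing notes with no version or role. The authors' deposited log2 ratios of TIL over SR were returned within 5e-05 by adding 10 to both values, and the deposited numbers of constructs up 2-fold and their log2 enrichments, of kind other and log2, were used as the authors' values. A line emptied for this work left 689 of 690 constructs, and no genome was used, so no target site has coordinates here.

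The scaled reads of a library were converted to CPM and averaged over the regions, which are read-outs of the same DNA. log2(CPM + 1), a pseudocount of 1, without a filter on low values, was tested with limma 3.58.1 (R 4.3.3), with Benjamini-Hochberg adjustment over all constructs, combinations, steps or pairs and a threshold of 0.05. As the values are scaled, tests for raw counts were not used. The fits were run on simulated data with normal noise around SR levels and no floor. Those data lack the all-or-nothing TIL values, so the run checked the calculation and not how the fits behave here. Alternatives were pseudocounts, an SR filter, single regions, scalings, medians, replicates left out, a replicate block and other thresholds. The constructs named are all those detected in TIL, called upward or up 2-fold, and the 3 lowest, and the steps named are those into and out of the pair, those that add Adora2a and the 3 largest each way. The constructs over the threshold in 1 region only and the spacer counts were singled out after their values had been seen. Members, lists, tests and the detection threshold were chosen with earlier results of these data known. The deposited synergy score, left undefined in the labels and headers, was not used here.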

Additional observations from a re-analysis of the deposited data

How the results depend on the processing

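Over 311 recomputed values, 264 kept their direction, their side of the threshold and, for counts, their size within 1.5 times. Scaling on the median of ratios moved the median change of all constructs from -8.50 to -0.63 and called 0 of the 42 lower, against 25, with 3 lower and 12 higher in the library and 131 lower at an unadjusted p under 0.05 (limma). Leaving out 1 replicate gave 0 to 1 higher against SR. Relative to non-targeting constructs it gave 0 to 11 lower (7 with all) and 0 to 3 higher (1 with all). The library shares in the alternative settings of that comparison are not given here. In that comparison a pseudocount of 10 CPM or region 1 alone gave 14 lower, a pseudocount of 0.1 CPM 0 lower and 0 higher, an SR minimum of 200 CPM 1 lower and 0 higher, and region 2 alone 0 higher.

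Combination values reversed as follows. With medians over constructs, Btla+Ctla4+Havcr2+Pdcd1 was -2.15, Btla+Ctla4+Pdcd1+Tigit -1.57, Ctla4+Pdcd1 -1.40, Ctla4+Havcr2+Pdcd1 -1.24, Ctla4+Havcr2+Pdcd1+Tigit -1.22 and Btla+Ctla4+Pdcd1 -0.04; 3 of the 7 combinations were then called lower (limma adjusted p = 0.0227, 0.0357 and 0.0439 for the first 3) and 7 of the 27 steps passed. The shares of all combinations and steps of the library called with medians are not given here. Whether these counts are particular to the 7 combinations thus cannot be read from them. Btla+Ctla4+Havcr2+Pdcd1 was also -0.26 with a pseudocount of 10 CPM. Centred on all constructs it was -0.37, and Ctla4+Pdcd1 was -0.28. Without the most abundant construct of each combination, chosen after seeing the data, they were -1.06 and -0.27. Ctla4+Pdcd1+Tigit, at -0.03, was 0.61 with a pseudocount of 0.1 CPM, 0.19 with the SR minimum and 0.15 with region 2. Leaving out 1 replicate gave -0.88 to 1.00 for Ctla4+Pdcd1 and -0.49 to 0.23 for Ctla4+Pdcd1+Tigit, with 0.16 without replicate 2 and 0.23 without replicate 3. It gave -4.75 to -1.37 for the pair against the sum, 0 to 2 steps called, 8 to 14 detected cases and 4 to 8 cases up 2-fold. The step that adds Havcr2 to the pair ran from -0.07 (without replicate 2) to 1.63, and the step that adds Tigit from -1.50 to 1.12 (without replicate 3) and was 0.02 with medians. The causes were not tested beyond what the construction of an alternative shows.

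Deviations of same-numbered SR and TIL samples correlated at 0.075, -0.082 and 0.086 across constructs, and those of samples with other numbers at -0.130 to 0.116. The median of a TIL library was 0 to 5 scaled reads. With so many values near 0 these correlations cannot show whether the numbers pair the samples. With the replicate number as a block, 25 of the 42 were lower against SR, as without it, and 0 lower and 0 higher relative to non-targeting constructs; the pair against the sum was -2.95 (limma adjusted p = 0.209) and no combination or step was called.

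Region 2 of TIL 3 held 545 of 689 constructs at 0, and the part of depth in this was not tested. With 3 replicates that share few detected constructs, differences of several log2 units did not pass, and a missed threshold does not show that combinations act alike.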
